A study of Mus musculus with 8 samples.

Results

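Imprinted growth genes of the inner ear were followed in mice at postnatal day 14. The set holds 10 of the 47517 gene symbols in the count files: H19, Igf2, Dlk1, Plagl1, Zim1, Peg10, Peg3, Mest, Cdkn1c and Grb10. They are imprinted regulators of growth, and they were chosen by their counts in these 8 libraries, because they lay higher in the mutant ones. The difference between the genotypes is therefore given for them as a description, with no test. Whole inner ear RNA came from wild-type mice (4 samples) and from littermates (4 samples) heterozygous for a frameshift that alters TRα1, the α1 form of the thyroid hormone receptor encoded by Thra. Neither group was treated. How many animals or ears went into a sample is not stated, so the spread between samples may in part be technical. The tissue was dissected whole, and all 10 inner ear markers listed passed the expression filter. They summed to 2499 to 3208 CPM in the wild-type and 1648 to 3636 CPM in the mutant libraries. Coch made up most of this sum, at 2212 to 2928 CPM in the wild-type and 1393 to 3279 CPM in the mutant libraries. CPM values are counts relative to library size, after scaling for composition.

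Libraries held 18930841 to 23064578 counts. In CPM, the floor of 3 counts was 0.132 to 0.159. The floor covers counting error only. All 10 members passed the filter on low counts among 21392 genes tested, and the lowest value of any member in any library was 0.788 CPM. In mutant replicate 4 the markers of choroid plexus, the epithelium that makes cerebrospinal fluid, summed to 2132 CPM, against 41.4 to 76.4 CPM in the other 7 libraries. Ttr alone stood at 2021 CPM in mutant replicate 4. Replicates 1 and 4 of either genotype have a title with 1 number, and replicates 2 and 3 a title with 2. What these numbers mean is not stated, and the difference is called title form below.

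Imprinted genes are expressed mainly from the copy inherited from the mother or mainly from that inherited from the father, because the copies carry different DNA methylation from the germ line. Many of them set fetal growth: as a broad tendency, genes active on the paternal copy promote growth and genes active on the maternal copy restrain it. Several are high in fetal mesenchyme, cartilage and muscle and decline after birth as growth slows. In the set, Igf2, Dlk1, Plagl1, Peg10, Peg3 and Mest are paternally expressed, H19, Zim1 and Cdkn1c maternally, and Grb10 maternally outside the brain.

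The members lie in several imprinted domains of GRCm38, some of which hold a pair of them, and 5 members are on chromosome 7. H19 (chr7:142575529-142578143, minus strand), a long non-coding RNA, lies 72622 bases from Igf2 (chr7:142650766-142666816, minus strand), the insulin-like growth factor of fetal life. Cdkn1c (chr7:143458339-143461050, minus strand) lies 791522 bases from Igf2 in a neighbouring domain. Zim1 (chr7:6671269-6696450) and Peg3 (chr7:6703892-6730431), both on the minus strand, are 7441 bases apart. Peg10 (chr6:4747306-4760517) and Mest (chr6:30723547-30748465) share a chromosome but no domain, and both are on the plus strand. Plagl1 (chr10:13060504-13131694, plus strand), Grb10 (chr11:11930508-12038683, minus strand) and Dlk1 (chr12:109452823-109463336, plus strand) each lie alone. Mest overlaps Copg2 on the opposite strand, Igf2 overlaps Igf2os, and Cdkn1c overlaps Gm44732. Whether counting used strand is not given in the sources used here, so reads of such partners may not have been told apart.

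H19 also carries the hairpin of a microRNA, Mir675 (chr7:142577064-142577147, minus strand), which has its own row in the count files. The mature sequences are shown because the hairpin lies within H19. They are credited to RefSeq (GRCm38.p6) and have the seed, bases 2 to 8, in capitals.
mmu-miR-675-5p: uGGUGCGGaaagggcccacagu
mmu-miR-675-3p: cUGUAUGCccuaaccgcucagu
The row held 36 counts in wild-type replicate 3 and 139, 158 and 48 counts in mutant replicates 1, 3 and 4. It was listed at 0 in the other 4 libraries, among them wild-type replicate 1 and mutant replicate 2 with 1340 and 1300 counts of H19. Counts of 0 in some libraries beside at least 10 in every other occurred in 1071 tested genes, so these zeros may not be measurements, and nothing is read from them. A total RNA library does not measure the mature microRNA.

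Promoter windows, the 250 bases before a start site, were held in the RefSeq table for 7 of the 10 members (13 windows: Igf2, Mest, Grb10, Plagl1, Dlk1, Zim1 and Peg3). They were searched on both strands for GGGGCCCC, the palindrome that Plagl1 is known to bind, and for AGGTCA, the half-site of nuclear receptors such as TRα1. GGGGCCCC occurred in 1 member window, that of Peg3, and in 0.889% of all 32851 windows. AGGTCA occurred in 1 member window, 1 of the 4 of Igf2, and in 14% of all windows. The windows with a match are shown because Plagl1 is a member of the set and because the mutation lies in a nuclear receptor. Plagl1 varied between libraries about as closely with Grb10 (Pearson r = 0.84) and Zim1 (0.80) as with Peg3 (0.82), as described below. No window of Grb10 or Zim1 held GGGGCCCC, and an action of Plagl1 on any of them was not tested. The motifs are in capitals, and that of Igf2 reads on the other strand (GRCm38.p6, minus strand, chr7:6730420-6730669 for Peg3 and chr7:142666817-142667066 for Igf2).
Peg3: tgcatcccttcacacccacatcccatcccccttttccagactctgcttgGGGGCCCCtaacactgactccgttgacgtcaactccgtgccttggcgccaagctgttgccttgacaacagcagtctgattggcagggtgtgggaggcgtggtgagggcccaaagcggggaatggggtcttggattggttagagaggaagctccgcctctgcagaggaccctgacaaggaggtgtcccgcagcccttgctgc
Igf2: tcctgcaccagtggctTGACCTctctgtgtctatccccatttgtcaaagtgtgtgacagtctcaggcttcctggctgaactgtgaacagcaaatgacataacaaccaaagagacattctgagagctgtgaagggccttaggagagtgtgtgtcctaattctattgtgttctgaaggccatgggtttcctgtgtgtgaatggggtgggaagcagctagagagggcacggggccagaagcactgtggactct
A match is a description of the letters and not a binding site, and a window without a match says nothing about the factor elsewhere.

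In wild-type inner ear the members spanned a wide range of levels. Per kilobase of annotated exon, Igf2 stood highest at 59.1 ± 22.1 CPM per kb (SD, n = 4). Cdkn1c followed at 28.2 ± 5.33 CPM per kb and H19 at 24.6 ± 12.97 CPM per kb, and the ranges of these 2 overlapped. Mest (11.7 ± 2.91 CPM per kb), Peg3 (8.49 ± 1.67), Grb10 (5.75 ± 1.96) and Plagl1 (3.66 ± 0.991) came next, each overlapping its neighbours in the order. Peg10 at 1.34 ± 0.416 CPM per kb, Zim1 at 0.389 ± 0.155 and Dlk1 at 0.166 ± 0.0379 lay below, with no overlap between them or with Plagl1. The wild-type range of Igf2 did not overlap that of Cdkn1c, but its lowest library (40.998 CPM per kb) lay below the highest of H19 (41.9 CPM per kb). Dlk1, with 15 to 27 counts in a wild-type library, was the least abundant and the least precisely counted.

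All 10 members had a positive log2 fold change of mutant against wild-type, which is the condition of their choice, whereas 48.3% of all tested genes were positive. The median over the members was 0.72 and that of all tested genes was -0.0061. In edgeR the test across all genes called 1 higher gene (0.00467% of those tested) and 8 lower ones (0.0374%, adjusted p under 0.05). No member was among them in this fit. Because the members were chosen on this contrast, that is no test of them. Their calls with other tools are not given. The values below are CPM in replicates 1 to 4.

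Of the growth factor and its non-coding neighbour, H19 had the larger log2 fold change. Igf2 had more counts in every library, but per kilobase of exon the mutant means were close, at 87.1 CPM per kb for H19 and 91.7 CPM per kb for Igf2. H19 stood at 62.2, 27.3, 103 and 49.1 CPM in the wild-type and 309, 59.8, 339 and 148 CPM in the mutant libraries. The genotypes overlapped because mutant replicate 2 lay below wild-type replicates 1 and 3. The wild-type mean of H19 was 60.4 ± 31.9 CPM and the mutant mean 214 ± 133 CPM (SD, n = 4 each), and its log2 fold change was 1.83 (SE 0.62). Igf2, which drives growth through the IGF1 and insulin receptors, stood at 235, 327, 519 and 272 CPM in the wild-type and 670, 289, 638 and 503 CPM in the mutant libraries. Here too mutant replicate 2 lay within the wild-type range, and so did mutant replicate 4. The log2 fold change of Igf2 was 0.64 (SE 0.32). The ratio of H19 to Igf2 counts was 0.265, 0.0833, 0.199 and 0.181 in wild-type and 0.462, 0.207, 0.532 and 0.295 in mutant libraries. The ratios overlapped, because mutant replicate 2 lay below wild-type replicate 1, and their difference was not tested.

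Among the zinc finger proteins of the set, Plagl1 and Zim1 did not overlap between the genotypes, and Peg3 did. Plagl1, a transcription factor that acts on several other imprinted genes, stood at 29.5, 23.8, 39.2 and 22.03 CPM in the wild-type and 45.0, 42.5, 55.9 and 48.3 CPM in the mutant libraries. Every mutant library lay above every wild-type library, at a log2 fold change of 0.74 (SE 0.18). Zim1 stood at 2.83, 2.31, 4.99 and 2.44 CPM in the wild-type and 6.28, 5.61, 13.8 and 5.08 CPM in the mutant libraries. The gap was narrow, between wild-type replicate 3 and mutant replicate 4, and the log2 fold change was 1.29 (SE 0.39). Without mutant replicate 3, the highest, that of Zim1 was 0.85. Peg3, a zinc finger protein tied to growth and maternal care, had the smallest difference of the set. It stood at 109, 109, 144 and 90.6 CPM in the wild-type and 133, 153, 167 and 127 CPM in the mutant libraries, a log2 fold change of 0.36 (SE 0.15). The overlap came from wild-type replicate 3. The ratio of Zim1 to Peg3 counts was at most 0.0347 in a wild-type library and at least 0.0367 in a mutant library. This gap is narrow, both genes were chosen by these libraries, and the difference of the ratios was not tested.

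The restraints on growth and differentiation lay higher as well. Cdkn1c, the cyclin-dependent kinase inhibitor p57, stood at 67.3, 46.3, 66.2 and 49.997 CPM in the wild-type and 118, 52.3, 118 and 85.5 CPM in the mutant libraries, a log2 fold change of 0.70 (SE 0.26). Only mutant replicate 2 lay within the wild-type range. Grb10, an adaptor that dampens insulin and IGF1 receptor signalling, stood at 50.9, 34.1, 76.7 and 47.4 CPM in the wild-type and 69.9, 56.6, 111 and 65.2 CPM in the mutant libraries. Wild-type replicate 3 lay above 3 of the 4 mutant libraries, and the log2 fold change was 0.54 (SE 0.28). It was 0.29 for Grb10 without mutant replicate 3. Dlk1, a Notch-like membrane protein that holds back fat cell differentiation, stood at 1.25, 0.788, 0.832 and 0.874 CPM in the wild-type and 2.77, 1.29, 2.67 and 2.22 CPM in the mutant libraries. It did not overlap, although mutant replicate 2 lay just above wild-type replicate 1, at a log2 fold change of 1.25 (SE 0.30).

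Peg10, a gene derived from a retrotransposon and needed for the placenta, stood at 10.4, 4.83, 10.8 and 9.84 CPM in the wild-type and 25.6, 8.60, 23.4 and 15.4 CPM in the mutant libraries. Its log2 fold change was 1.03 (SE 0.37), and mutant replicate 2 again lay within the wild-type range. Mest, a hydrolase-like protein of mesoderm and of expanding fat tissue, stood at 55.9, 30.5, 53.4 and 45.0 CPM in the wild-type and 67.7, 46.8, 68.7 and 68.7 CPM in the mutant libraries, a log2 fold change of 0.45 (SE 0.20), or 0.29 without wild-type replicate 2. In all, 3 of the 10 members (Dlk1, Plagl1 and Zim1) had every mutant library above every wild-type library, beside 1.28% of all tested genes, and 1.41% had every mutant library below. The closest libraries of the 2 genotypes had 27 and 28 counts for Dlk1, and 4.99 and 5.08 CPM for Zim1. Members were chosen as higher in these same libraries, so this count is a description. Mutant replicate 2 was the lowest mutant library for 8 of the members, all but Zim1 and Peg3. The plot of CPM by library shows this pattern for each gene.

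**Figure D1:**
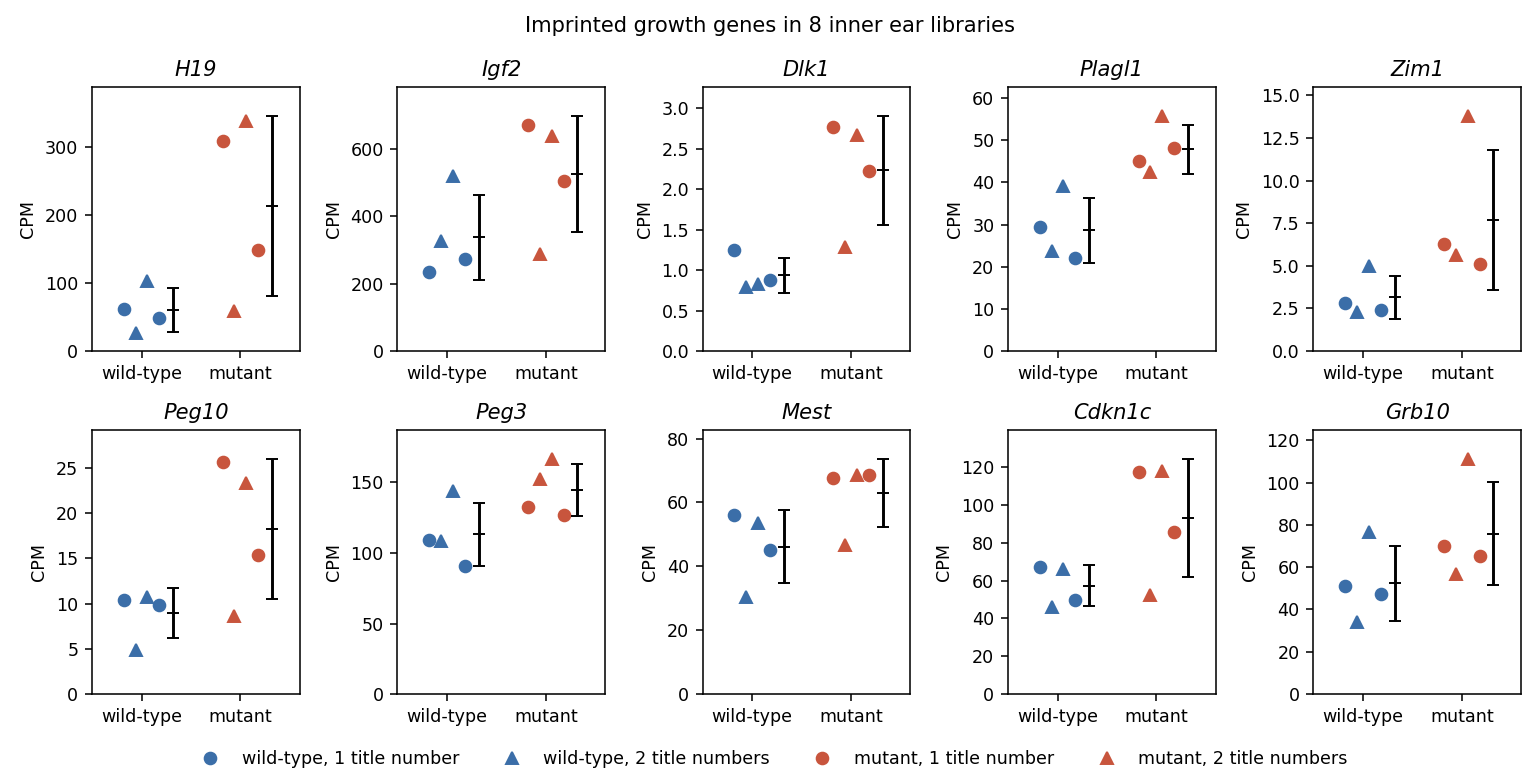
Level of each imprinted growth gene (CPM, linear axis from 0) in 4 wild-type and 4 mutant inner ear libraries, in replicate order from left to right; circles have 1 number and triangles 2 numbers in the title, and bars give mean and SD. Dlk1, Plagl1 and Zim1 do not overlap between genotypes, and mutant replicate 2 (the first red triangle) lies near the wild-type values in H19, Igf2, Peg10, Mest and Cdkn1c.

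Within each title form the mean of all 10 members was higher in mutant libraries. These are the libraries by which the members were chosen, so the split, like the pairs below, is a description and no independent support. The log2 ratio of mean CPM in libraries with 1 title number and in those with 2 was 2.04 and 1.61 for H19, 1.23 and 1.29 for Dlk1, 1.02 and 1.03 for Peg10, and 0.43 and 0.46 for Mest. For Igf2 it was 1.21 and 0.13. The difference between these ratios, an interaction of genotype with title form, was tested across all genes and passed for 0 of the members and for 0.0795% of all genes (edgeR). Each genotype has 2 libraries per title form, so this test could miss a sizeable difference. For Igf2 the adjusted p of the interaction was 1. Compared within neighbouring title numbers, an assumed pairing, 9 of the 10 members were higher in mutant libraries in 4 of 4 pairs, beside 11.4% of all genes higher and 12.3% lower in this way. The exception was Igf2, higher in 3 of the 4.

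Title form itself was not used to choose the members and was tested with genotype in the model. No member differed between libraries with 2 title numbers and those with 1 at an adjusted p under 0.05 (edgeR, n = 4 and 4), beside 9.39% of all tested genes (6.49% higher and 2.9% lower). At an unadjusted p under 0.05 there was 1 member, Peg3, whose log2 difference was 0.32 (SE 0.10, edgeR adjusted p = 0.0971). Of all tested genes 26.9% had an unadjusted p under 0.05. DESeq2 called Peg3 (adjusted p = 0.0358), beside 1737 genes higher and 1172 lower of the 21392 tested. With limma-voom 0 members were called, beside 1412 genes higher and 607 lower. The intervals of the other members are wide: H19 had a log2 difference of 0.012 with an SE of 0.67. Of 37 other imprinted genes tested, 6 were higher and 2 lower with 2 title numbers in edgeR, against 7 and 6 in DESeq2 and 6 and 3 in limma-voom. The higher ones in edgeR were Meg3 (log2 difference 1.75, edgeR adjusted p = 0.00629) and Mirg (1.81, 0.00990), non-coding RNAs of the Dlk1 domain, Airn (1.08, 0.0122) and Kcnq1ot1 (1.10, 0.0133), non-coding RNAs of the domains of Igf2r and of Cdkn1c, and Impact (0.48, 0.0127) and Kcnq1 (0.35, 0.0406). Snurf (-0.49, 0.0199) and Peg13 (-0.43, 0.0382) were lower. With single libraries left out, 3 (without wild-type replicate 4) to 6 of the list were higher. Of the lower ones 3 were called without wild-type replicate 2, and 0 or 1 without any of the other 7 libraries. The calls over all genes also fell without any of these 7, from 1388 higher and 620 lower to 224 to 729 higher and 30 to 242 lower. Kcnq1ot1 and Meg3 thus passed this test while Cdkn1c and Dlk1, members from the same domains, did not. The difference between the genes was not tested.

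**Figure D2:**
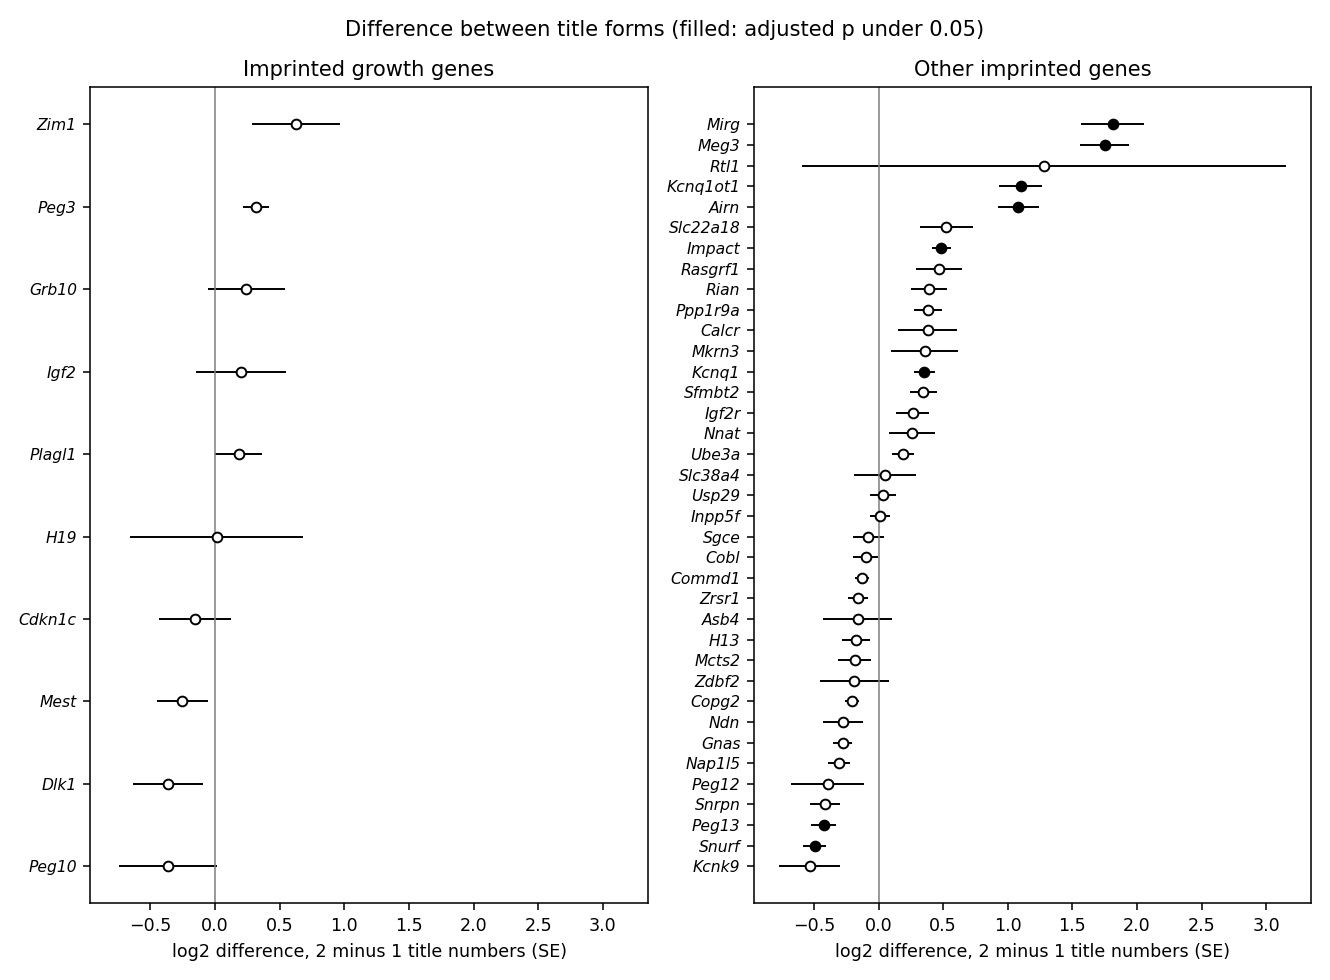
Log2 difference between libraries with 2 and with 1 number in the title, with its SE, for the 10 imprinted growth genes (left) and 37 other imprinted genes (right); filled points passed an edgeR adjusted p under 0.05. The 4 non-coding RNAs Mirg, Meg3, Kcnq1ot1 and Airn lie between 1.08 and 1.81, and no growth gene is filled.

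With the mean of each genotype removed, the members varied together from library to library. Over the 45 pairs of members the median Pearson r of log2 CPM over 8 libraries was 0.66, and 32 pairs had an r above 0.5 while 1 was below 0. These correlations describe 8 libraries that share depth, composition and dissection. They have no p, and 6 degrees of freedom remain once the genotype means are removed. H19 was closest to the other members (r = 0.95 with their mean) and Peg3 the farthest (0.42). The highest pairs were H19 with Cdkn1c (0.95), H19 with Peg10 (0.95), Zim1 with Grb10 (0.93), and Cdkn1c with Peg10 and with Dlk1 (0.91 each). Neighbours in a domain were close but not the closest, at 0.78 for H19 with Igf2 and 0.80 for Zim1 with Peg3. Plagl1, Zim1, Peg3 and Grb10 correlated at 0.64 to 0.93 with each other, whereas Peg3 stood at -0.14 with Dlk1 and 0.063 with Peg10.

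**Figure D3:**
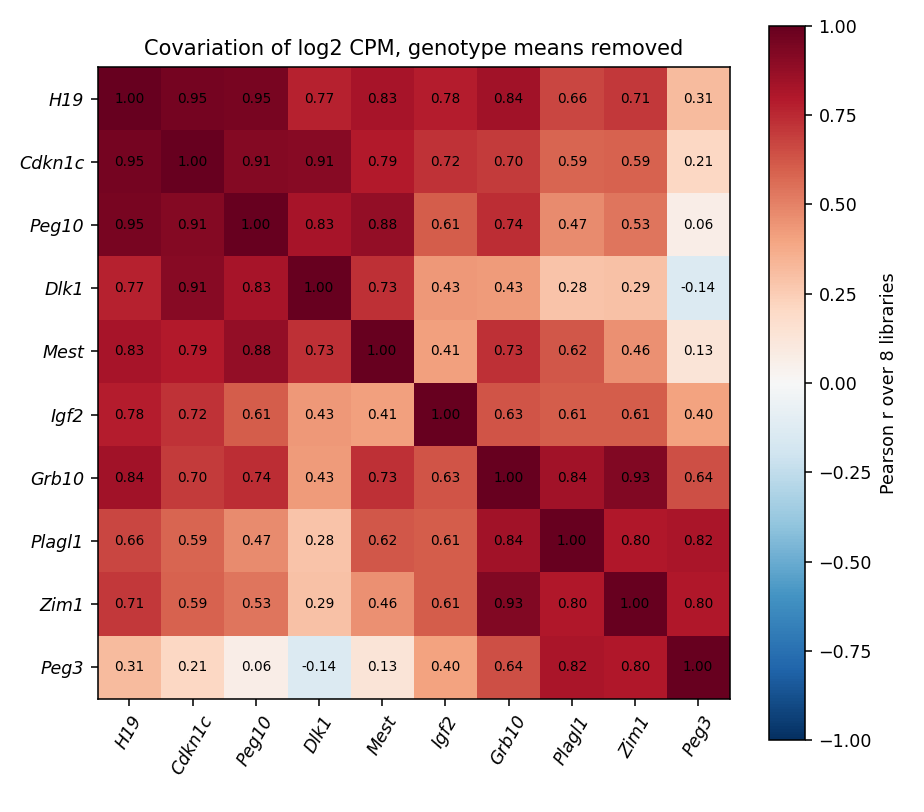
Pearson correlation of log2 CPM between imprinted growth genes over 8 libraries after the mean of each genotype was removed; red is positive and blue negative. H19, Cdkn1c and Peg10 reach 0.91 to 0.95 with each other, and Peg3 is near 0 with Dlk1, Peg10 and Mest.

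A member score, the mean over the members of the centred log2 CPM in SD units, was 0.26, -0.85, 1.03 and -0.43 in wild-type replicates 1 to 4 and 0.38, -1.17, 0.99 and -0.20 in mutant replicates 1 to 4. Replicate 2 was thus lowest and replicate 3 highest in both genotypes. Both have 2 numbers in the title. Among 14996 other genes with a mean of at least 5 CPM, 328 had an r of at least 0.9 with this score and 260 an r of -0.9 or less. The 8 named genes most like the score were the sulfotransferase gene Gal3st4 (r = 0.99), Pdgfrl (0.98), the antigen-presenting gene Mr1 (0.98), Sertad4 (0.98), the heparin-binding growth factor gene Ptn (0.98), the collagen prolyl hydroxylase gene P3h3 (0.98), the DNA repair gene Rad51d (0.98) and the potassium-chloride cotransporter gene Slc12a4 (0.98). At the opposite end stood genes of immune cells, among them the TNF receptor family gene Tnfrsf13b (r = -0.99), the class II antigen gene H2-Aa (-0.99) and the interferon regulator gene Irf7 (-0.99).

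Markers of cartilage and mesenchyme moved with the score, and markers of blood and marrow moved against it. Of 9 tested cartilage markers 7 had a positive r, with a median of 0.79, and of 10 fibroblast and mesenchyme markers 9 did, with a median of 0.81. Of 10 blood and marrow markers 9 had a negative r, with a median of -0.92. The other tissue lists followed the score less. Their median r was 0.36 for skeletal muscle, 0.29 for leptomeninges, 0.19 for pituitary, 0.022 for inner ear and -0.27 for choroid plexus. Cartilage markers summed to 3775, 1203, 4362 and 2610 CPM in the wild-type and 6698, 2248, 6355 and 4048 CPM in the mutant replicates 1 to 4. Blood and marrow markers summed to 11164, 30417, 7816 and 16036 CPM in the wild-type and 10638, 12201, 4775 and 7235 CPM in the mutant libraries. Most of each sum came from a few genes. In wild-type replicate 1, Col2a1, Col11a1 and Col9a1 stood at 2485, 771 and 333 CPM, and Hba-a1 and Hbb-bs at 6481 and 4005 CPM. In each genotype replicate 3, lowest in blood markers, had the highest score, and replicate 2, highest in blood and lowest in cartilage markers, had the lowest. In whole tissue, fewer cells of a type and less RNA per cell cannot be told apart.

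**Figure D4:**
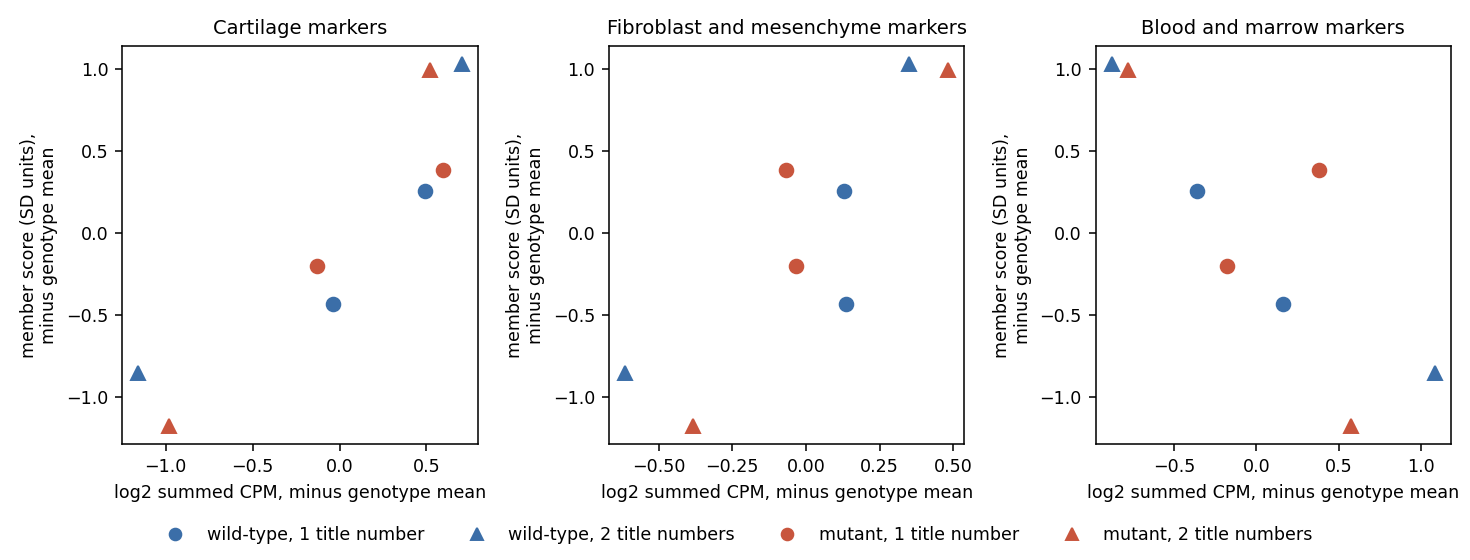
Member score against the log2 summed CPM of cartilage, fibroblast and mesenchyme, and blood and marrow markers, each minus its genotype mean, in 4 wild-type (blue) and 4 mutant (red) libraries; circles have 1 and triangles 2 title numbers. The score follows cartilage (r = 0.92) and mesenchyme sums (0.86) and runs against the blood sum (-0.85), with the replicates 2 and 3 at the ends. A few abundant genes make up most of each sum.

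The same marker lists also lay apart between the genotypes, without a call for any marker (edgeR). Cartilage had 7 of 9 positive log2 fold changes (median 0.37), mesenchyme 9 of 10 (median 0.33) and blood and marrow 0 of 10 (median -0.71), beside a median of -0.0061 over all genes. In 4 of 4 neighbouring title pairs 8 mesenchyme and 6 cartilage markers were higher, beside 11.4% of all genes. In the same way 6 blood markers and 1 mesenchyme marker, Pi16, were lower, beside 12.3% of all genes. Leptomeninges, a known site of Igf2 expression, had 5 of 10 positive and summed to 259 to 421 CPM in the wild-type and 311 to 388 CPM in the mutant libraries. Choroid plexus, another such site, had 10 of 10 positive, but 0 were higher in 4 of 4 neighbouring title pairs. Mutant replicate 4, with the high sum given above, held the highest value of every choroid plexus marker but Slc5a7. The log2 fold change of Igf2 was 0.64 with that library and 0.66 without it. Skeletal muscle markers (4 of 11 tested positive) summed to 16.0 to 25.9 CPM over all libraries, and Myog had under 24 counts in all. Among the positive ones was Pax7, with 0, 0, 35 and 0 counts in wild-type and 37, 72, 35 and 77 in mutant libraries. Its zeros are of the kind described for Mir675. Anterior pituitary markers (1 of 3 tested positive) summed to 2.21 to 13.5 CPM, and Prl, Lhb and Ghrhr had under 24 counts. The positive pituitary marker, Tshb, was at 0 in some libraries of each genotype. No marker of any list was at 0 in every library.

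When the score of a marker list was added to the model, the differences of the members were smaller. This fit was chosen after the data had been seen. It was run only for the tissue lists with the strongest median correlation with the member score. The median log2 fold change over the members went from 0.72 to 0.36 with the blood score, 0.33 with the mesenchyme score and 0.39 with the cartilage score. H19 went from 1.83 to 0.78, 0.78 and 0.92. Dlk1 changed less, from 1.25 to 0.94, 0.95 and 0.95, and Plagl1 went from 0.74 to 0.50, 0.45 and 0.56. Grb10 went from 0.54 to 0.11, -0.019 and 0.18, and Mest from 0.45 to 0.17, 0.090 and 0.16. The scores themselves differed between genotypes (mean -0.17 in wild-type and 0.17 in mutant libraries for mesenchyme), so genotype and tissue makeup cannot be told apart in these 8 libraries.

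**Figure D5:**
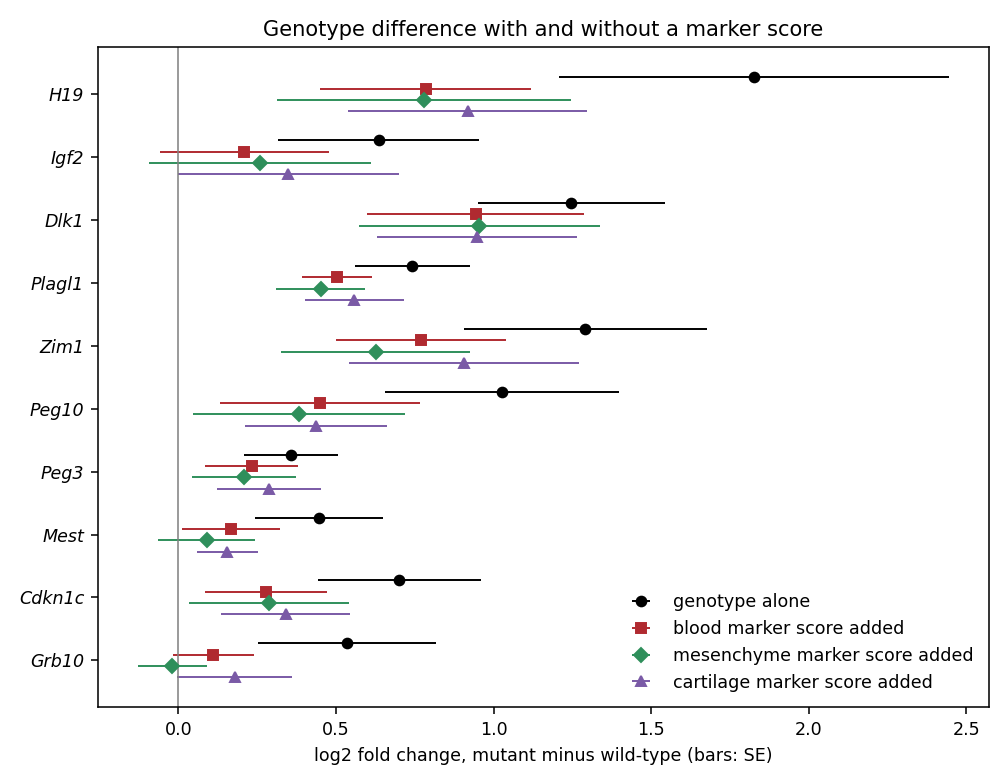
Log2 fold change of mutant against wild-type, with its SE, for each imprinted growth gene with genotype alone (black) and with the blood, mesenchyme or cartilage marker score added to the model. All 10 genes lie above 0 with genotype alone, and Grb10 lies at -0.019 with the mesenchyme score.

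Other imprinted genes lay on both sides of 0 in the comparison of the genotypes. Of 42 listed, 37 were tested, and Magel2, Dio3, Phlda2, Ascl2 and Klf14 were too low. Of the 21 paternally expressed ones 15 were positive (median log2 fold change 0.11), among them Rtl1, which had zeros of the kind described for Mir675. Of the 16 on the maternal list 9 were positive (median 0.019), beside 48.3% of all tested genes. Every mutant library lay above every wild-type library for Sgce, Usp29 and Copg2, beside 1.28% of all tested genes. For Cobl every mutant library lay below, beside 1.41%. In edgeR 0 were called higher and 0 lower, beside 0.0421% of all genes called in either direction. At an unadjusted p under 0.05 there were 3 higher and 2 lower, beside 2.21% and 3.09% of all tested genes. DESeq2 called 1 higher, Copg2, and limma-voom called 0. Copg2, a coat protein gene that overlaps Mest on the other strand, stood at 151, 126, 136 and 144 CPM in the wild-type and 201, 163, 171 and 196 CPM in the mutant libraries, without overlap (log2 fold change 0.39, SE 0.097, edgeR adjusted p = 0.798). Sgce, the paternally expressed neighbour of Peg10, had a log2 fold change of 0.34 (SE 0.12, edgeR adjusted p = 0.907) and Usp29, in the domain of Peg3, one of 0.29 (SE 0.11, 0.924). Zdbf2 had 0.54 (SE 0.27, 0.925), and with Copg2 and Peg12 (0.37) it lay above the smallest member, Peg3. The genes with the smallest p on the lower side were the calcitonin receptor gene Calcr (-0.64, SE 0.26, 0.924) and the actin nucleator gene Cobl (-0.25, SE 0.10, 0.924). Among domain neighbours, Meg3 (0.019) and Rian (0.079) of the Dlk1 domain and Kcnq1ot1 (0.052) of the Cdkn1c domain had small log2 fold changes, with an SE of 0.65 for Meg3. Igf2r, which clears IGF2 from the cell surface, had one of 0.24 (SE 0.15).

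Genes of the fetal growth programme that are not imprinted had log2 fold changes of either sign. Of 11 tested, 6 were positive and 5 negative, and 0 were called (edgeR, DESeq2 and limma-voom). The smallest p belonged to Ezh2, the histone methyltransferase of the Polycomb complex, at 38.1, 45.2, 32.8 and 42.6 CPM in the wild-type and 30.9, 33.3, 25.3 and 27.7 CPM in the mutant libraries. The log2 fold change of Ezh2 was -0.44 (SE 0.12, edgeR adjusted p = 0.907), and that of the chromatin protein gene Hmga1 was -0.48 (SE 0.20, 0.924). These 2 were the ones with an unadjusted p under 0.05. Of 5 genes of insulin and IGF receptor signalling 4 were positive and 0 were called by any of the 3 tools. Igf1, the postnatal counterpart of Igf2, had a log2 fold change of 0.21 (SE 0.21).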

How the data were processed

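Each of the 8 deposited files holds raw counts per gene symbol, which the authors did not normalize. Per the submitters' processing notes, reads went through FastQC, STAR and HTSeq on mm10 (no versions), and the kit adds molecular identifiers, per the labels' protocols. No annotation, strand setting or identifier use was stated, and these are unknown here. Counts were fitted with edgeR 4.0.16 in R 4.3.3 (TMM, default expression filter, robust quasi-likelihood) over 21392 genes, with genotype alone, or with title form. Adjusted p is Benjamini-Hochberg over all genes, with a threshold of 0.05. SE is the log2 fold change over the square root of F. Alternatives used other normalizations and filters, DESeq2 1.42.0, limma-voom (limma 3.58.1), left-out libraries, title form, a block and marker scores. The fit was tested on simulated data. Positions and exon lengths are from GENCODE M21 (GRCm38), where 45236 symbols matched. No 2 libraries agreed within sampling noise (lowest chi-square per degree of freedom 17.3). Members and lists were chosen with earlier results of these data known. Named genes were the members, domain neighbours, the leading genes of each list and the 8 genes most like the score. Counting in this way limits precision at low levels, most of all for Dlk1 and Zim1. Correlations used log2 CPM with a prior count of 2.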

Additional observations from a re-analysis of the deposited data

Results flagged for a closer look

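In 5 of 58 groups of 4 libraries the highest or lowest lay far from the others, by Dixon's criterion of the gap over the range, and chance flags about 1 in 20 groups. Zim1 stood at 13.8 CPM in mutant replicate 3, and the next mutant library at 6.28 CPM. Peg10 stood at 4.83 CPM in wild-type replicate 2, where the next was 9.84 CPM. Mest stood at 46.8 CPM in mutant replicate 2, where the next was 67.7 CPM. Igf2r stood at 97.0 CPM in wild-type replicate 3, where the next was 78.3 CPM. Choroid plexus markers summed to 2130 CPM in mutant replicate 4, where the next was 76.4 CPM.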

How the results depend on the processing

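The median log2 fold change of the members stayed between 0.61 and 0.93 with each library left out in turn, and between 0.33 and 0.93 over all 19 alternatives. All 10 members were positive in each alternative but the fit with the mesenchyme score, where Grb10 had -0.019. With neighbouring title numbers as a replicate block, an assumed pairing, the members lay between 0.37 and 1.70. That pairing is not given by the labels, and deviations of the pairs correlated at 0.13, 0.25, 0.19 and -0.038. The other imprinted genes called higher were 0 except with DESeq2 (1), and the members called between title forms were 0 except with DESeq2 (1). With a library left out, these counts and those of other imprinted genes called lower and of growth programme genes stayed at 0. Over all genes 1 was higher and 8 lower, against 19 and 49 with DESeq2, 5 and 11 with limma-voom and 17 and 12 with the block. Genes called between title forms numbered 1388 higher and 620 lower, against 1737 and 1172 with DESeq2, and 224 and 30 without mutant replicate 1. The cause was not tested. Depth limits Dlk1 most, with 15 counts in its lowest library.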
